A study of Mus musculus with 12 samples.

Results

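Solute carriers (SLC) are membrane proteins that move nutrients, metals, ions and metabolites into cells and between organelles. The SLC genes described here are the genes of the count table named Slc, a family number, the letter a and a member number, with counts that summed to at least 120 over the 12 libraries. Of 207 genes with such a name 168 met the count threshold, out of 12960 genes in the table, and all 168 were among the 10822 genes that passed the filter on low counts and were tested. The rule thus uses the name and the summed level and no difference between groups, so levels are given as a description. It was set with earlier results of these data known. The members nearest to the threshold were Slc1a4 and Slc45a3 with 127 counts each and Slc36a2 with 129 counts, and the genes just outside it were Slc25a27 with 103, Slc27a3 with 101 and Slc7a11 with 99 counts. SLC genes under other symbols (Slco, Ucp, Mpc, Flvcr and others) are outside the name rule and are described at the end.

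The libraries were made from bone marrow-derived macrophages (BMDMs), primary cells grown from mouse marrow for 7 days with L929 medium as a source of M-CSF. The cells came from WT mice or from mice without AMPKβ1 (AMPKβ1-/-) in the whole body, so the gene was also absent while the macrophages differentiated. Each genotype received vehicle (DMSO 0.1%) or 10 µM PF-06409577, an activator selective for AMPK complexes with the β1 subunit, for 6 h, which gave 4 groups of 3 libraries. The labels do not say that the libraries came from separate mice, nor give age or sex, so p-values measure the spread between libraries, which may be technical.

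Total counts were between 8935609 and 14358180 per library. Prkab1, the gene of AMPKβ1, was between 37.3 and 45.3 CPM, counts scaled to a common library total, in the 6 WT libraries and between 6.05 and 9.42 CPM in the 6 AMPKβ1-/- libraries. The 7 macrophage markers examined summed to between 24383 and 28492 CPM in each library, with Csf1r at 4709 CPM or more. Fibroblast markers summed to 0.923 to 1.89 CPM with vehicle and 1.03 to 1.29 CPM with PF-06409577 in WT, and to 2.02 to 8.66 CPM and 1.58 to 2.12 CPM in AMPKβ1-/- BMDMs. The summed level of granulocyte markers was at most 0.784 CPM, of dendritic cell markers 1.37 CPM and of the erythroid marker Hba-a1 1.09 CPM, and no lymphoid marker was in the table. Libraries also differed in how counts depended on the GC content of transcripts. The slope per 10 percentage points of GC, on the log2 scale relative to the mean of all libraries, was 0.37 to 0.75 in WT vehicle, −0.055 to 0.39 in WT PF-06409577, −0.37 to −0.11 in AMPKβ1-/- vehicle and −0.54 to −0.35 in AMPKβ1-/- PF-06409577 libraries. The slopes of each group lay apart from or only partly over those of the next, so calls below are also given from a fit with the GC and length trend of every library taken out.

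As background, SLC proteins are mostly secondary transporters and exchangers, which use gradients of sodium, protons or a counter-transported solute instead of ATP. Families are numbered by sequence, and members of a family usually share a class of substrate while differing in the membrane in which they sit. Macrophages depend on them for glutamine, arginine and cystine uptake, for glucose uptake, for the export of lactate, for the removal of metals from phagosomes and for the release of iron from digested red cells. AMPK is known to act on glucose transporters mostly through their traffic to the membrane, which transcript counts do not measure.

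Levels of different genes were compared as CPM per kb of transcript, averaged over the 12 libraries and divided by the median length of the annotated transcripts of the gene. The taurine transporter Slc6a6 was highest with 3059 CPM per kb, followed by Slc43a2, a carrier of branched-chain and other large neutral amino acids, with 1669, and by Slc3a2, the CD98 heavy chain that brings several amino acid exchangers to the plasma membrane, with 496. The 3 members with the highest CPM, Slc6a6, Slc43a2 and Slc37a2, held 30.3% of all SLC CPM and the 20 highest by CPM held 62.6%. By mean CPM, which does not correct for length, 29 members reached 100 CPM or more, 95 were between 10 and 100, 39 between 1 and 10 and 5 under 1 CPM. The median length counts short annotated transcripts (559 bases for Slc6a6, whose longest has 6186), so levels per kb depend on it. With the length of the longest transcript, an alternative chosen after seeing the data, Slc6a6 was still highest at 276 CPM per kb, followed by Slc37a2 with 203 and Slc43a2 with 196. In 2 members at least 1 library was at or under 3 counts, the upper limit for a count of 0.

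Among carriers of metals and heme the highest was Slc11a1 (NRAMP1), which pumps iron and manganese out of phagosomes, with 438 CPM per kb, close to the lysosomal heme carrier Slc48a1 with 416. Slc37a2, a sugar phosphate exchanger of the endoplasmic reticulum, led the sugar carriers with 409, against 77.96 for the hexose carrier Slc2a6 (GLUT6) and 39.03 for Slc2a1 (GLUT1). The mitochondrial phosphate carrier Slc25a3 had 301 CPM per kb, the anion exchanger Slc4a2 (AE2) 229, the fatty acid transport protein Slc27a1 207, and the vitamin C carrier Slc23a2 272. Among carriers of nucleotide sugars Slc35a4 was highest with 84.8. With the longest transcript the same gene led 6 of the 8 classes, and Slc39a1 with 127 CPM per kb led metals and heme and Slc25a5 with 131 the mitochondrial carriers. With median lengths, medians of the classes were between 9.60 CPM per kb for nucleosides, vitamins, choline and organic ions and 30.4 for metals and heme.

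**Figure D1:**
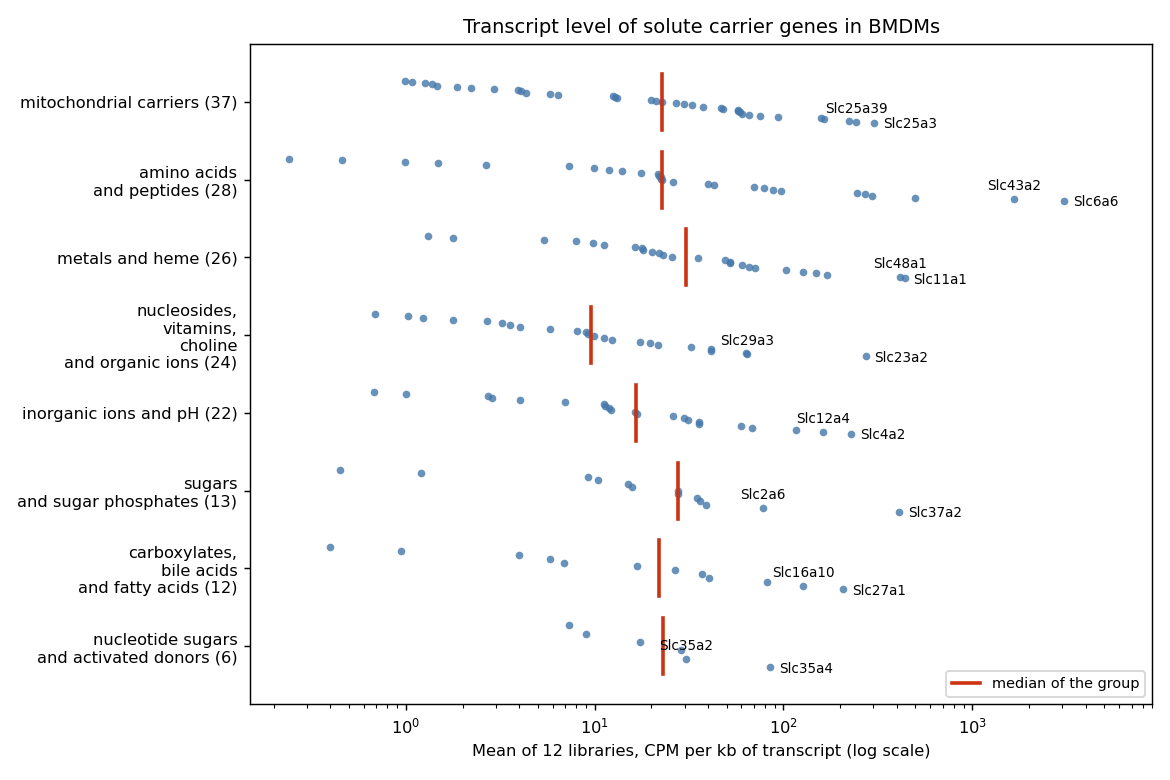
Mean transcript level of each of the 168 SLC genes over 12 libraries, in CPM per kb of median transcript length on a log axis, by substrate class with the number of members in brackets. Each point is a gene, the red line is the median of the class, and the 2 highest genes are named. The class medians lie between 9.60 and 30.4 CPM per kb, while single genes span from 0.241 to 3059.

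PF-06409577 in WT BMDMs was compared with vehicle to ask which transporters respond when AMPK is activated. With an adjusted p under 0.05, 10 members rose and 26 fell, which is 21.4% of the 168 members against 15.9% of all genes tested (6.99% rose and 8.95% fell). The median log2 fold change was −0.069 over the members and 0.0048 over all genes tested. Past a log2 fold change of 0.8 as well, Slc30a4 and Slc16a7 rose and Slc6a12 fell, against 1.52% of all genes tested. Of the 26 that fell 25 were lower in every PF-06409577 library than in every vehicle library, and of the 10 that rose 7 were higher in every library. These members were called on the same libraries, so the lack of overlap is a description and adds no support. Over all members the libraries did not overlap for 54 (32.1%), against 32.2% of all genes tested. With scaling by library size alone, which moved the median of all genes to 0.086, 15 members rose and 17 fell.

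The count of 36 depended on single libraries. It was 11 without WT PF-06409577 library 2, 8 without WT PF-06409577 library 3, 14 without WT vehicle library 1, 18 without WT vehicle library 3 and 8 in a fit of the 6 WT libraries alone, and 7 members kept their call in each of the 12 fits that left out 1 library. With the GC and length trend taken out 6 members rose and 11 fell, against 6.5% of all genes tested (3.08% and 3.42%), and 12 of these were among the 36. The calls of 6 members, Slc2a6, Slc7a7, Slc12a7, Slc13a3, Slc39a13 and Slc17a5, held in each of the 21 alternative fits.

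**Figure D2:**
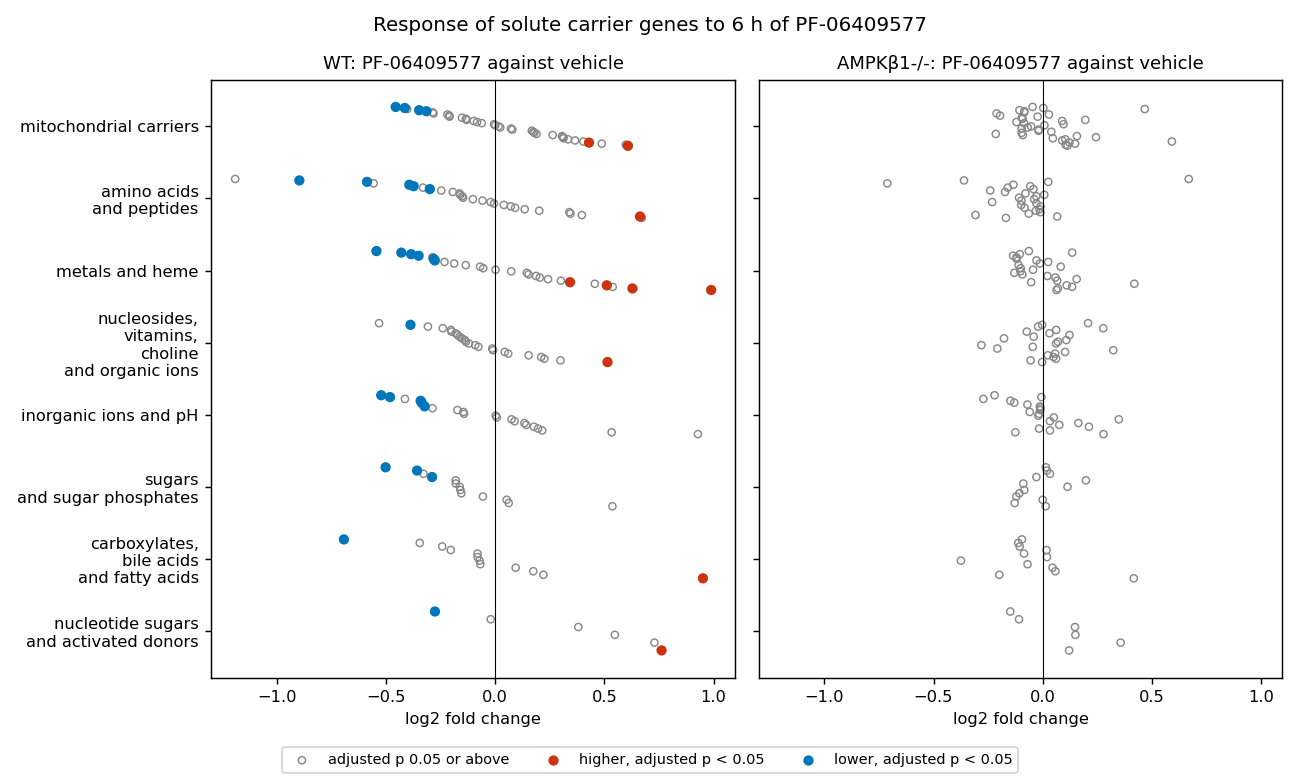
The log2 fold change of PF-06409577 against vehicle for each of the 168 SLC genes, in WT on the left and in AMPKβ1-/- BMDMs on the right, by substrate class and in the same vertical order in both panels. Filled points passed an adjusted p of 0.05, with 10 higher and 26 lower in WT and 0 in AMPKβ1-/- BMDMs, and open points did not.

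Among 28 carriers of amino acids and peptides 1 rose and 5 fell (21.4%, against 15.9% of all genes tested). The largest fall among those called was in Slc6a12, a carrier of betaine and GABA. Its levels were 15.2, 8.68 and 11.6 CPM with vehicle and 7.03, 5.43 and 6.46 CPM with PF-06409577, a log2 fold change of −0.90 with an SE of 0.23 (adjusted p = 0.0204). All 3 treated libraries were under the lowest vehicle library, the call was kept with the GC and length trend taken out (−0.76, adjusted p = 0.0346), and it was lost without WT vehicle library 1 or 3 or PF-06409577 library 2 or 3. Slc7a7 (y+LAT1, chr14:54369442-54417780 on GRCm38), which exchanges cationic for neutral amino acids across the plasma membrane together with Slc3a2, had the smallest p of the class. It was at 22.8, 21.6 and 20.6 CPM with vehicle and 13.9, 14.2 and 15.1 CPM with PF-06409577. The groups were well apart, and the log2 fold change was −0.59 with an SE of 0.10 (adjusted p = 0.00358), and −0.51 (adjusted p = 0.00355) with the GC and length trend taken out.

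Of the other amino acid carriers that fell, Slc43a2 went from 1656, 1433 and 1727 CPM to 1238, 1219.8 and 1209 CPM, a log2 fold change of −0.39 (adjusted p = 0.0142), and it was −0.24 (adjusted p = 0.0527) with the GC and length trend taken out. Slc1a5 (ASCT2), a main entry route for glutamine, changed by −0.37 (adjusted p = 0.0477) and Slc38a10 by −0.30 (adjusted p = 0.0447), and neither call held with the trend taken out, at adjusted p = 0.209 and 0.511. Slc36a4, a proton-coupled amino acid transporter, was the member that rose, from 20.1, 27.4 and 28.3 CPM to 31.04, 40.5 and 48.5 CPM, a log2 fold change of 0.66 (adjusted p = 0.0128), and of 0.36 (adjusted p = 0.024) with the trend taken out. Slc6a6, with the highest level of all, was at 1664, 1627 and 1819.7 CPM and 1714, 1681 and 1697 CPM, with overlapping groups and a 95% confidence interval of its log2 fold change from −0.15 to 0.14.

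The 3 sugar carriers that changed all fell, out of 13 (23.1%, against 15.9% of all genes tested). Slc2a6 (chr2:27021363-27027998), a hexose carrier found in lysosomal membranes of macrophages, was at 223, 196 and 229 CPM with vehicle and 174, 146 and 138 CPM with PF-06409577. Each treated library was under the lowest vehicle library, with a log2 fold change of −0.50 with an SE of 0.10 (adjusted p = 0.0068) that was −0.24 (adjusted p = 0.0293) with the GC and length trend taken out. Slc37a2 went from 1397, 1286 and 1385 CPM to 1088, 1168 and 1074 CPM, a change of −0.29 (adjusted p = 0.0145), and Slc45a4, of a family assigned to proton-coupled sugar transport, changed by −0.36 (adjusted p = 0.00947). Slc45a4 lost its call with the trend taken out (adjusted p = 0.165), and Slc37a2 kept it (adjusted p = 0.0105). Slc2a1, the basal glucose transporter, was at 30.1, 22.8 and 27.97 CPM and 27.96, 24.9 and 24.8 CPM, with a 95% confidence interval from −0.29 to 0.18.

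Among 22 carriers of inorganic ions 5 fell and 0 rose (22.7%, against 15.9% of all genes tested). Of these 5, 3 belong to the cation-chloride cotransporter family SLC12, of which 5 members were measured. Slc12a7 (KCC4, chr13:73733094-73816754), a potassium-chloride cotransporter that lets swollen cells lose volume, was at 98.6, 95.4 and 119 CPM with vehicle and 76.8, 75.1 and 72.1 CPM with PF-06409577. All treated libraries were lower, by a log2 fold change of −0.48 with an SE of 0.09 (adjusted p = 0.00407). Slc12a9, a less studied relative, went from 105, 95.5 and 116 CPM to 82.3, 72.7 and 65.9 CPM, a log2 fold change of −0.52 (adjusted p = 0.0087). The log2 fold change of Slc12a4 (KCC1) was −0.34 (adjusted p = 0.0314). The pH regulator Slc4a2, which exchanges bicarbonate for chloride, changed by −0.32 (adjusted p = 0.0266). With the GC and length trend taken out Slc12a7 and Slc12a9 kept their calls at −0.32 and −0.30 (adjusted p = 0.0157 and 0.0212), and Slc12a4 and Slc4a2 did not (adjusted p = 0.268 and 0.315).

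Among 26 carriers of metals and heme 4 rose and 6 fell (38.5%, against 15.9% of all genes tested). With the GC and length trend taken out 1 rose and 2 fell (11.5%, against 6.5% of all genes tested). The 4 that rose were the iron exporter Slc40a1 and 3 of the 6 measured members of the zinc transporter family SLC30. Slc40a1 (ferroportin), the exporter of iron from macrophages, was at 18.3, 23.2 and 15.4 CPM with vehicle and 21.01, 29.6 and 30.6 CPM with PF-06409577, so the groups overlapped, with a log2 fold change of 0.51 with an SE of 0.16 (adjusted p = 0.0404). The zinc exporter Slc30a1 (ZnT1) went from 10.3, 19.2 and 18.5 CPM to 19.6, 25.7 and 29.1 CPM, a log2 fold change of 0.63 (adjusted p = 0.044). Slc30a4 (ZnT4), which moves zinc into endosomal and secretory compartments, was at 1.39, 1.66 and 1.49 CPM and 2.06, 3.65 and 3.38 CPM, the largest rise at 0.99 with an SE of 0.29 (adjusted p = 0.0328) from a low level, and Slc30a9 changed by 0.34 (adjusted p = 0.0443). With the GC and length trend taken out Slc30a1 kept its call (log2 fold change 0.54, adjusted p = 0.0428), while Slc40a1 was at 0.13 (adjusted p = 0.513) and Slc30a4 at 0.59 (adjusted p = 0.147). The Slc40a1 and Slc30a1 calls were each kept in 3 of 12 fits that left out a single library.

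The metal carriers that fell were Slc11a1, Slc48a1 and 4 of the 11 zinc importers of family SLC39 that were measured. Slc11a1 was at 391, 329.7 and 379 CPM with vehicle and 307, 278 and 257 CPM with PF-06409577, with each treated library lower, and its log2 fold change was −0.39 (adjusted p = 0.0106). Slc48a1 (HRG1), which moves heme out of phagolysosomes, went from 389, 345 and 354 CPM to 296, 290.2 and 267 CPM, a log2 fold change of −0.35 (adjusted p = 0.0093). Slc39a13 (ZIP13, chr2:91061791-91070417), a zinc carrier of intracellular vesicles and the Golgi, had the smallest p of the class, at 62.1, 57.4 and 72.1 CPM and 48.9, 40.6 and 41.8 CPM, a log2 fold change of −0.54 with an SE of 0.11 (adjusted p = 0.0057). The plasma membrane importers Slc39a1 and Slc39a4 and the endoplasmic reticulum carrier Slc39a7 changed by −0.28, −0.43 and −0.28 (adjusted p = 0.02, 0.0427 and 0.0494). Slc39a13 and Slc11a1 kept their calls with the trend taken out, at −0.31 and −0.21 (adjusted p = 0.0355 and 0.0268), and Slc48a1 was at adjusted p = 0.0703 and Slc39a1 at 0.176. Slc39a4 and Slc39a7 lost their calls too, and kept them in only 1 and 3 of 12 fits that left out a single library. With the trend taken out the median log2 fold change of SLC39 went from −0.19 to −0.038, and that of SLC30 from 0.32 to −0.013.

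Mitochondrial carriers, taken as the members of family SLC25, were the largest class. Of 37, 2 were higher and 4 lower (16.2%, against 15.9% of all genes tested), and their median log2 fold change was 0.015. The 4 that fell were Slc25a39, which brings glutathione into mitochondria, at −0.35 (adjusted p = 0.0149), the dicarboxylate carrier Slc25a10 at −0.41 (0.0173), the ATP-magnesium/phosphate carrier Slc25a23 at −0.46 (0.0205) and Slc25a45 at −0.32 (0.0393). Those that rose were Slc25a24, another ATP-magnesium/phosphate carrier, at 0.61 (adjusted p = 0.038) and Slc25a30 at 0.43 (0.039). Slc25a39 was at 255, 228 and 238 CPM with vehicle and 210.3, 183 and 172 CPM with PF-06409577, with every treated library lower. None of these 6 calls held with the GC and length trend taken out (the adjusted p of Slc25a39 was 0.192). The ADP/ATP carrier Slc25a4 was called in that fit instead, at 0.39 (adjusted p = 0.0289), and its reads can be split with its close paralog Slc25a5. The phosphate carrier Slc25a3 was at 522, 457 and 424 CPM and 465, 494 and 459 CPM, with a 95% confidence interval from −0.15 to 0.18.

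In the 3 remaining classes 6 members changed, against 15.9% of all genes tested. Called were 2 of 12 carriers of carboxylates, bile acids and fatty acids (16.7%) and 2 of 6 of nucleotide sugars (33.3%). For nucleosides, vitamins, choline and organic ions 2 of 24 carriers were called (8.33%). Slc13a3 (NaDC3, chr2:165405028-165473230), a sodium-coupled carrier of succinate and other dicarboxylates, was at 12.5, 12.4 and 14.2 CPM with vehicle and 7.46, 9.08 and 7.69 CPM with PF-06409577. The groups did not overlap, and the log2 fold change was −0.69 with an SE of 0.13 (adjusted p = 0.00434), and −0.47 (adjusted p = 0.0334) with the trend taken out. The monocarboxylate transporter Slc16a7 (MCT2) rose from 2.67, 5.35 and 5.18 CPM to 6.69, 8.80 and 10.2 CPM, a log2 fold change of 0.95 with an SE of 0.25 (adjusted p = 0.023), which was 0.53 (adjusted p = 0.0525) with the GC and length trend taken out. Slc17a5 (sialin, chr9:78536488-78588041), which releases sialic acid from lysosomes, was at 41.9, 48.7 and 41.9 CPM with vehicle and 60.6, 62.3 and 66.5 CPM with PF-06409577. It was higher in each treated library, by a log2 fold change of 0.51 with an SE of 0.10 (adjusted p = 0.00475), and of 0.30 (adjusted p = 0.0308) with the trend taken out. The CMP-sialic acid transporter of the Golgi, Slc35a1, was at 3.10, 4.43 and 3.48 CPM and 4.37, 7.02 and 7.39 CPM, with a log2 fold change of 0.76 (adjusted p = 0.0261), and of 0.40 (adjusted p = 0.17) with the trend taken out. The riboflavin carrier Slc52a2 changed by −0.39 (adjusted p = 0.0324) and Slc35a4 by −0.28 (adjusted p = 0.0383), and neither held with the trend taken out (adjusted p = 0.306 and 0.444).

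**Figure D3:**
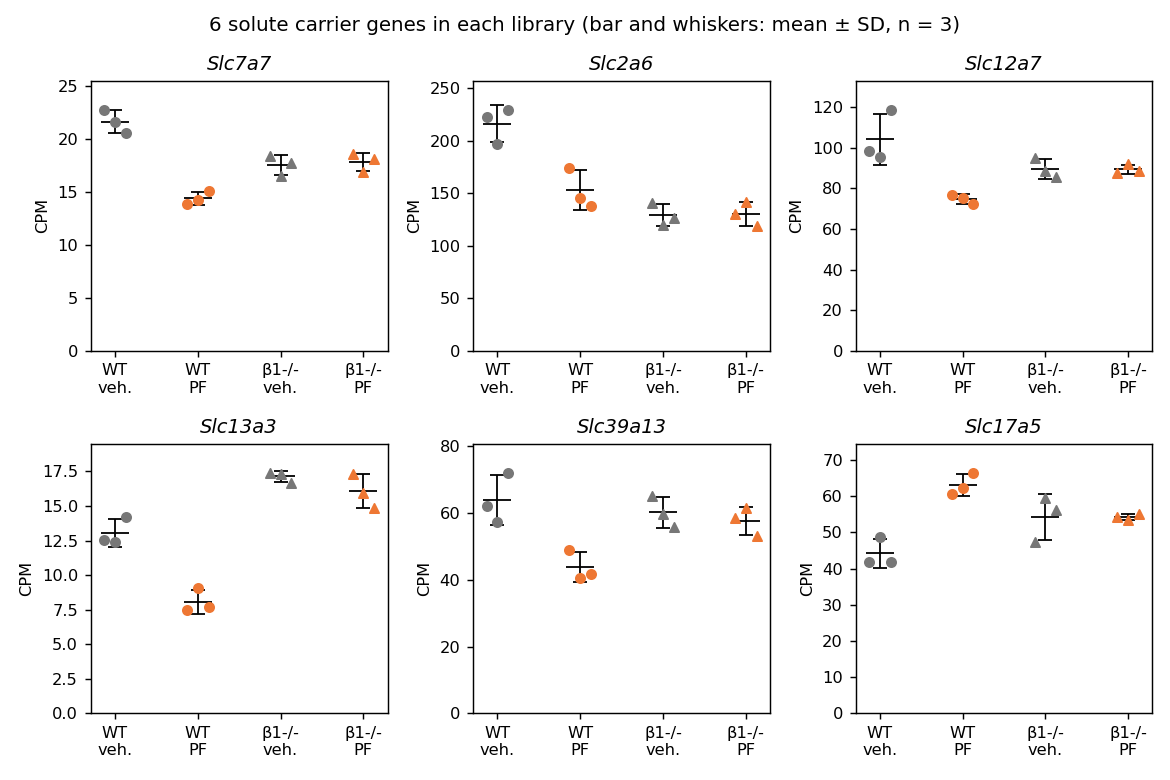
Level in CPM of 6 SLC genes in each of the 12 libraries, circles for WT and triangles for AMPKβ1-/- (β1-/-), grey for vehicle and orange for PF-06409577, with mean ± SD (n = 3). In WT, Slc7a7, Slc2a6, Slc12a7, Slc13a3 and Slc39a13 are lower and Slc17a5 is higher in each treated library, and in AMPKβ1-/- BMDMs the vehicle and treated libraries of these genes overlap.

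For the 6 members whose calls held in every alternative fit, the RefSeq promoter windows (GRCm38.p6, 250 bases before to 50 after a transcription start) were searched on both strands for motifs of stress and nutrient response factors. The 3 that hold the E-box CACGTG, bound by MiT/TFE factors among others, or the ATF4 element TGATGNAA are printed with every match in capitals, to show what lies next to the starts of transporters that fell in WT.
Slc7a7, chr14:54417895-54418194, minus strand, TGATGNAA: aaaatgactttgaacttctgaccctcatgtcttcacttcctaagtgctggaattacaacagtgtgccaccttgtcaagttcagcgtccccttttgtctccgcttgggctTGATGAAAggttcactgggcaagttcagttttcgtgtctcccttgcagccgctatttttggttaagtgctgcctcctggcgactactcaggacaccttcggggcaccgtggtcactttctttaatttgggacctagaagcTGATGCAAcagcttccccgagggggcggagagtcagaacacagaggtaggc
Slc12a7, chr13:73763410-73763709, plus strand, CACGTG: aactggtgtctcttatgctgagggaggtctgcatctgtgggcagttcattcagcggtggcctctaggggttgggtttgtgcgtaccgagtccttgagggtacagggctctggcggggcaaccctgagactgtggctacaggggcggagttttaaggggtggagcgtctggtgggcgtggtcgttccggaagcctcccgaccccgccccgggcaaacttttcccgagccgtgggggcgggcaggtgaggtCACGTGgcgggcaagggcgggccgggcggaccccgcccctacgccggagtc
Slc13a3, chr2:165473148-165473447, minus strand, CACGTG: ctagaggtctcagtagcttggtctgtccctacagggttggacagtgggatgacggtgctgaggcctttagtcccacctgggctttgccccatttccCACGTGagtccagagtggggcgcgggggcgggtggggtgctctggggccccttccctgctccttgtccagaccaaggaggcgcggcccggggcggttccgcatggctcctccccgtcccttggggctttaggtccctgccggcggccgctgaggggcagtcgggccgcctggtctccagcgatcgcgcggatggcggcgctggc
Slc7a7 has 5 such windows and its element is in 2 of them, Slc12a7 has 2 windows with the E-box in both, and Slc13a3 has 1. The window shown for Slc12a7 belongs to a start inside the annotated gene, and that shown for Slc7a7 lies upstream of the gene span given above. The E-box begins 1 base before the start in Slc12a7 and 154 bases before it in Slc13a3.

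Of 168 members 124 had a promoter window, and CACGTG was found in 25 of them (20.2%), against 12.2% of 8784 tested genes and 8.09% of 27025 genes with a window. It was in 3 of the 19 members with a window that fell with PF-06409577 in WT (Slc12a7, Slc12a9 and Slc13a3) and in 0 of the 8 that rose. The longer CLEAR motif of lysosomal genes, which contains the E-box, was in 0 members and in 0.888% of tested genes. ACGTG, which the E-box also contains, was in 34.7% of members and 30.1% of tested genes, the antioxidant response element in 2.42% and 3.15%, and TGATGNAA in 4.03% and 2.77%. These shares are descriptions of letters in a window of 300 bases, with no test.

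Several transporters often measured in activated macrophages did not pass the threshold in WT. The lactate exporter Slc16a3 (MCT4) was at 101, 79.7 and 99.2 CPM with vehicle and 82.2, 73.5 and 64.5 CPM with PF-06409577, a log2 fold change of −0.35 (adjusted p = 0.0706), and its relative Slc16a1 (MCT1) had a 95% confidence interval from −0.25 to 0.69. For the CD98 heavy chain Slc3a2 the interval was −0.36 to 0.029, for its partner Slc7a5 (LAT1) −0.42 to 0.49 and for the arginine transporter Slc7a2 −0.22 to 1.02. Intervals were −0.23 to 0.093 for the iron importer Slc11a2 (DMT1), −0.25 to 0.27 for the phosphate carrier Slc20a1, −0.21 to 0.18 for the lysosomal nucleoside carrier Slc29a3 and −0.35 to 0.042 for the citrate carrier Slc25a1. Slc15a4, the lysosomal peptide and histidine carrier, had an interval from −0.32 to 0.016, and its relative Slc15a3 was at −0.021 (adjusted p = 0.887), against 0.22 (adjusted p = 0.0314) with the GC and length trend taken out. The highest members of other classes, Slc23a2 and Slc27a1, had intervals from −0.16 to 0.28 and from −0.28 to 0.12. The cystine importer Slc7a11, outside the count rule, had 4 to 14 counts in each library and a log2 fold change of 0.35 (adjusted p = 0.571).

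The members that rose and those that fell differed in base composition without overlap. GC content was between 40.3% and 48% for the 10 that rose and between 50.2% and 59.2% for the 26 that fell. When the 168 members were divided into equal parts by GC content, the part with the lowest GC held all 10 rises and 0 falls, the middle part 0 and 8, and the part with the highest GC 0 and 18. Spearman's correlation of the log2 fold change with GC content was −0.73 over the 168 members and −0.71 over 10785 tested genes, and it was −0.13 and −0.041 with the trend taken out. The genes of a library share its GC slope, so these are descriptions. With the trend taken out Slc17a5, Slc30a1 and Slc36a4 remained among the members that rose, and Slc2a6, Slc6a12, Slc7a7, Slc11a1, Slc12a7, Slc12a9, Slc13a3, Slc37a2 and Slc39a13 among those that fell. The creatine transporter Slc6a8, Slc15a3 and Slc25a4 were added to those higher, and the sodium-calcium exchanger Slc8a1 and the endosomal proton exchanger Slc9a9 to those lower. How far base composition or the treatment set the values that moved with GC was not tested.

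**Figure D4:**
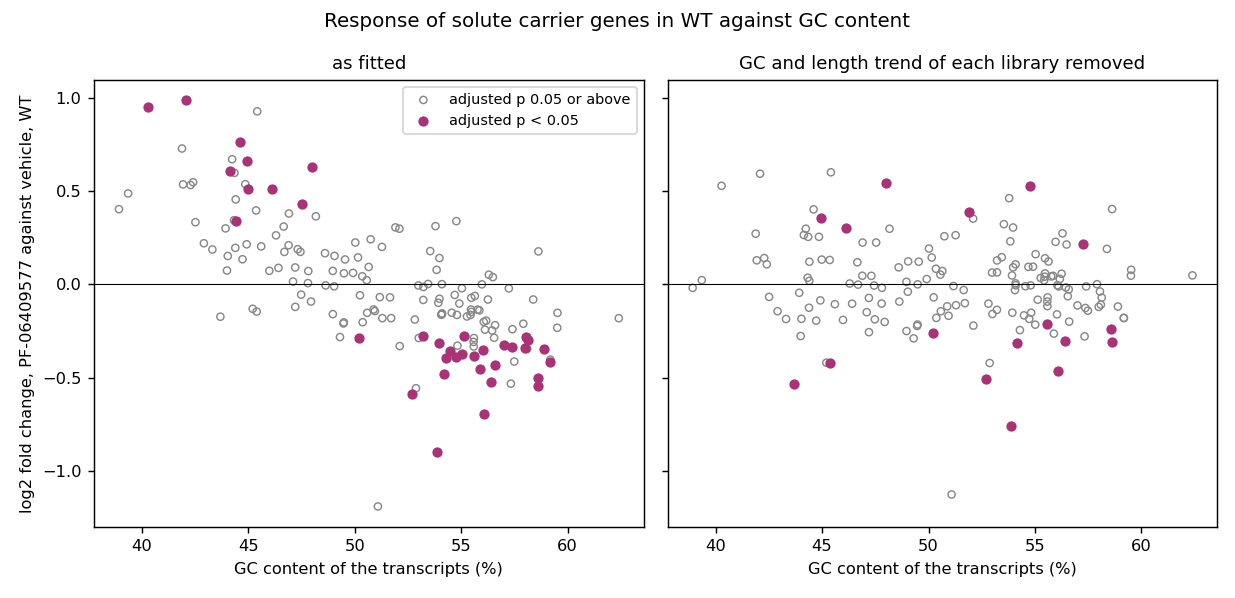
The log2 fold change of PF-06409577 against vehicle in WT for each of the 168 SLC genes (vertical axis) against the GC content of its transcripts in percent (horizontal axis), as fitted on the left and with the GC and length trend of each library taken out on the right. Filled points passed an adjusted p of 0.05. On the left the 10 rises lie at 40.3% to 48% GC and the 26 falls at 50.2% to 59.2%, and on the right 6 rises and 11 falls spread over the range.

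In AMPKβ1-/- BMDMs 0 of 168 members passed the threshold with PF-06409577 in edgeR's quasi-likelihood test, against 0.0554% of all genes tested, with 2 members (Slc15a3 and Slc29a3) at an unadjusted p under 0.05 (1.19%, against 4.98% of all genes tested) and 0 members called by DESeq2. The median log2 fold change of the members was −0.017, and the median half-width of their 95% confidence intervals was 0.249, close to 0.25 in WT. For the 10 members that rose in WT the median log2 fold change was 0.62 in WT and 0.090 in AMPKβ1-/- BMDMs, where the values ran from −0.053 to 0.42. For the 26 that fell it was −0.38 in WT and −0.060 in AMPKβ1-/- BMDMs, with values from −0.36 to 0.14. Both sets were picked by their WT values, which by itself favours larger values in WT. In AMPKβ1-/- BMDMs 8 of the 10 and 21 of the 26 had the same sign as in WT, and the libraries of 0 of the 10 and 3 of the 26 did not overlap. These 3 were Slc35a4 and Slc48a1, lower in each treated library, and Slc39a4, higher in each. Over all members the libraries did not overlap for 14 (8.33%), against 14.5% of all genes tested.

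The values of the most stable WT responders were close to each other with and without the compound in AMPKβ1-/- BMDMs. Slc7a7 was at 18.4, 16.6 and 17.7 CPM with vehicle and 18.6, 16.9 and 18.1 CPM with PF-06409577, with a log2 fold change of 0.026 and an interval from −0.19 to 0.25. Slc2a6 was at 140.1, 119.8 and 127 CPM and 130.3, 142 and 118 CPM (0.015, interval −0.20 to 0.23). For Slc13a3 the values were 17.4, 17.3 and 16.7 CPM and 17.3, 15.9 and 14.9 CPM. The groups overlapped for these 3 genes, and for Slc12a7, Slc39a13 and Slc17a5, whose intervals ran from −0.19 to 0.18, from −0.28 to 0.16 and from −0.21 to 0.20. Slc40a1 was at 23.2, 27.1 and 27.7 CPM and 27.6, 26.9 and 29.7 CPM. With vehicle Slc7a7, Slc2a6 and Slc12a7 were already called lower and Slc17a5 and Slc13a3 higher in AMPKβ1-/- than in WT BMDMs. Except for Slc13a3 this was the direction of the change with PF-06409577 in WT. The calls of Slc7a7, Slc12a7 and Slc17a5 between genotypes were lost in some of 21 alternative fits, that of Slc12a7 in 14. With the GC and length trend taken out Slc12a7 was at 0.092 and Slc17a5 at −0.21.

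The difference between the responses of the genotypes was tested as an interaction, WT minus AMPKβ1-/-. None of the 168 members passed (0.416% of all genes tested did), and 23 members (13.7%) had an unadjusted p under 0.05, against 14.3% of all genes tested. The smallest adjusted p values were those of Slc7a7 (difference −0.61, interval −0.93 to −0.30, adjusted p = 0.0807), Slc12a7 (−0.48, −0.74 to −0.21, 0.104) and Slc17a5 (0.52, 0.23 to 0.81, 0.107). Among the members called in WT the interval of the difference lay on 1 side of 0 for 5 of the 10 that rose and 14 of the 26 that fell, before any adjustment. With the GC and length trend taken out Slc7a7 passed at −0.58 (adjusted p = 0.0427), as did Slc6a8 at 0.50 (0.0383) and Slc15a3 at 0.41 (0.0205), against 1.44% of all genes tested, and in DESeq2 Slc12a7 (adjusted p = 0.0291) and Slc17a5 (0.0446) did. Without AMPKβ1-/- vehicle library 1 Slc17a5 passed (0.61, adjusted p = 0.0388), and without WT PF-06409577 library 1 Slc2a6, Slc25a10 and Slc36a4 did (adjusted p = 0.0269, 0.0308 and 0.0386).

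AMPKβ1-/- BMDMs were compared with WT to see which transporters differ with the genotype itself. With vehicle 39 members were higher and 54 lower in AMPKβ1-/- BMDMs, 55.4% of the members against 59.7% of all genes tested (29.7% higher and 30% lower). With PF-06409577 in both genotypes 30 were higher and 35 lower, 38.7% against 47.1% (24.1% and 22.9%). These calls moved with the scaling and with base composition. Library size alone, which moved the median of all genes with vehicle from −0.026 to 0.18, gave 57 higher and 23 lower with vehicle and 43 and 15 with PF-06409577. The count of 65 with PF-06409577 was 42 without WT PF-06409577 library 1 and 43 without AMPKβ1-/- PF-06409577 library 1 or 3. With the GC and length trend taken out the counts with vehicle were 26 and 27 (35.6% of all genes tested passed, 15.4% and 20.2%), of which 16 and 14 were also called without that step, and 14 of the 39 and 11 of the 54 changed sign. With PF-06409577 they were 32 and 33 (40.9% of all genes tested, 18.2% and 22.7%), of which 16 and 18 were shared, and 8 of the 30 and 1 of the 35 changed sign. Genotype and the GC slopes of the libraries cannot be told apart in this design, and fibroblast markers summed to 2.02 to 8.66 CPM in AMPKβ1-/- vehicle libraries against 0.923 to 1.89 CPM in WT vehicle libraries, whose part in these calls was not tested.

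Past a log2 fold change of 0.8, 17 members were higher and 2 lower in AMPKβ1-/- BMDMs with vehicle. The same lean to higher values was seen over all genes tested, with 1740 higher and 191 lower (17.8% passed). The zinc transporter Slc30a4 differed most, with 1.39, 1.66 and 1.49 CPM in WT and 6.66, 9.39 and 10.5 CPM in AMPKβ1-/- BMDMs, a log2 fold change of 2.53 with an SE of 0.25 (adjusted p = 1.18e-05) that was 1.40 (adjusted p = 0.000103) with the trend taken out. The sodium bicarbonate cotransporter Slc4a7 was at 8.55, 13.3 and 9.95 CPM and 29.99, 43.5 and 37.5 CPM, with a log2 fold change of 1.80 (adjusted p = 0.000123) and of 0.94 (adjusted p = 0.000139) with the trend taken out. The libraries of the genotypes were far apart for both genes, and with PF-06409577 the log2 fold changes were 1.61 and 2.07. The sulfate carrier Slc26a2 had 1.29 and 0.59 in the fits without and with that step, and Slc35a3, which carries UDP-N-acetylglucosamine into the Golgi, 1.56 and 0.58, with an adjusted p under 0.05 in each fit. Slc25a36, a mitochondrial carrier of pyrimidine nucleotides, was at 10.2, 13.3 and 12.5 CPM and 26.7, 30.8 and 29.3 CPM, and its log2 fold change of 1.27 became 0.0044 with the trend taken out (adjusted p = 0.983). The same step took Slc16a7 from 1.22 to −0.0057 and the lactate carrier Slc16a1 from 0.82 to −0.21.

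The lower members included carriers of lysosomes and mitochondria, though mitochondrial carriers went both ways. Of 37 mitochondrial carriers 8 were called higher and 11 lower with vehicle (51.4%, against 59.7% of all genes tested). With the trend taken out 4 were higher and 5 lower (24.3%, against 35.6%). Slc38a7, which exports glutamine from lysosomes, was at 166, 132 and 139 CPM in WT and 91.7, 75.6 and 79.01 CPM in AMPKβ1-/- BMDMs with vehicle, a log2 fold change of −0.83 with an SE of 0.10 (adjusted p = 2.59e-05). The groups did not overlap, and the value was −0.47 (adjusted p = 0.000109) with the trend taken out and −0.79 between the PF-06409577 groups. Slc25a23 had a log2 fold change of −0.91 (adjusted p = 5.41e-05) and Slc2a6, with 140.1, 119.8 and 127 CPM in AMPKβ1-/- BMDMs, of −0.75 (adjusted p = 6.65e-05), and both kept their calls at −0.54 and −0.36. The citrate carrier Slc25a1, which feeds cytosolic acetyl-CoA, had −0.68 (adjusted p = 6.57e-05), and −0.25 (adjusted p = 0.0034) with the trend taken out. Slc25a3 and Slc39a1 were also called in both fits, at −0.38 and −0.60 and at −0.40 and −0.21. Slc3a2, Slc15a3, Slc25a39, Slc27a1 and Slc29a3 were called lower with log2 fold changes of −0.42, −0.43, −0.54, −0.45 and −0.39 and lost the call with the trend taken out. Slc13a3 was higher in AMPKβ1-/- BMDMs, at 17.4, 17.3 and 16.7 CPM against 12.5, 12.4 and 14.2 CPM, by 0.40 (adjusted p = 0.0108) and by 0.74 (adjusted p = 0.000142) with the trend taken out.

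**Figure D5:**
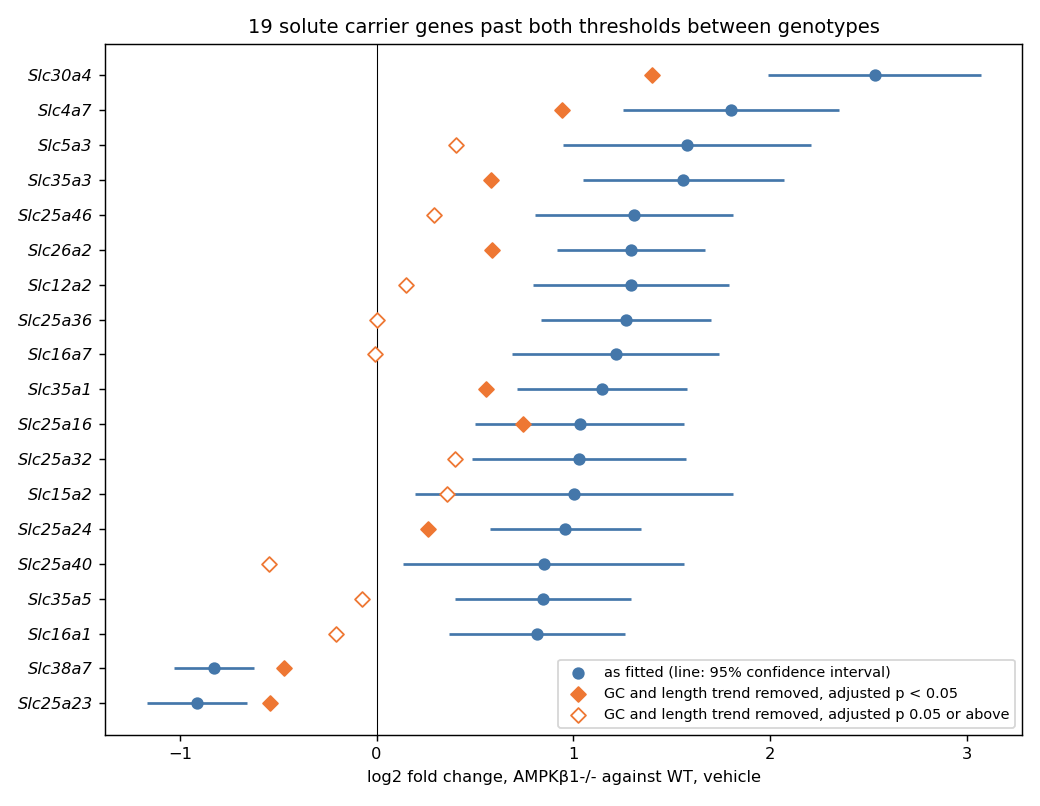
AMPKβ1-/- against WT BMDMs with vehicle, as log2 fold changes, for the 19 SLC genes past an adjusted p of 0.05 and a log2 fold change of 0.8, as circles with 95% confidence intervals. Diamonds give the value with the GC and length trend of each library taken out, filled where the adjusted p was under 0.05. All 19 diamonds lie nearer to 0 than their circles or on the other side of it, and 9 of them are filled, among them Slc30a4, Slc4a7 and Slc38a7.

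Transporters of the solute carrier families under other symbols were examined beside the members. Of 40 such genes in the list 25 were tested, and with PF-06409577 in WT 2 rose and 3 fell, against 6.99% and 8.95% of all genes tested. Slco2b1, an organic anion transporter that takes up steroid sulfates and bile acids, was at 13.8, 13.6 and 12.1 CPM with vehicle and 6.69, 7.02 and 6.85 CPM with PF-06409577 in WT and at 11.9, 12.8 and 10.3 CPM and 12.1, 13.5 and 14.5 CPM in AMPKβ1-/- BMDMs. In WT the treated libraries were all far under the vehicle libraries (log2 fold change −0.94 with an SE of 0.14, adjusted p = 0.00114), in AMPKβ1-/- BMDMs they overlapped, and the interaction passed at −1.13 (adjusted p = 0.0192). Ucp2, a mitochondrial carrier of family SLC25, was at 2342, 1963 and 1913 CPM and 1384, 1352 and 1247 CPM in WT, a log2 fold change of −0.64 (adjusted p = 0.00073), and at 1569, 1393 and 1452 CPM and 1436, 1414 and 1429.6 CPM in AMPKβ1-/- BMDMs, with an interaction of −0.60 (adjusted p = 0.0417). Both interactions also passed with the GC and length trend taken out (adjusted p = 0.00599 and 0.00878). Sfxn3, a carrier of the sideroflexin family, changed by −0.34 (adjusted p = 0.0177, and 0.103 with the trend taken out). Those that rose were Flvcr1, a choline and heme carrier, by 0.86 (adjusted p = 0.00744, and 0.000857 with the trend taken out), and Mpc1, a subunit of the mitochondrial pyruvate carrier, by 0.56 (adjusted p = 0.0279, and 0.127 with the trend taken out).

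Genes that work beside the transporters were examined in the same fit of PF-06409577 in WT. Of 12 tested genes of iron handling 1 rose and 0 fell, against 6.99% and 8.95% of all genes tested. It was Ncoa4, the receptor that delivers ferritin to lysosomes, at 0.62 (adjusted p = 0.0422), and its adjusted p was 0.183 with the GC and length trend taken out. In that fit 1 gene of the list rose and 1 fell, against 3.08% and 3.42% of all genes tested. They were the ferritin heavy chain Fth1 at 0.32 (adjusted p = 0.0187, against 0.26 and 0.069 without that step) and the iron chaperone Pcbp2 at −0.23 (adjusted p = 0.0316, against −0.14 and 0.161). The interaction of Fth1 was 0.45 (adjusted p = 0.0477) with the trend taken out and 0.43 (0.173) without that step. The ferritin light chain Ftl1 was at −0.044 (adjusted p = 0.746), the transferrin receptor Tfrc at 0.42 (0.141) and the heme-degrading enzyme Hmox1 at −0.20 (0.0823). The chaperones Bsg, Emb and Nptn, which bring monocarboxylate transporters to the plasma membrane, were at −0.24, 0.39 and 0.17 (adjusted p = 0.0826, 0.0526 and 0.23). With PF-06409577 in AMPKβ1-/- BMDMs 0 genes of these 3 lists were called, against 0.0554% of all genes tested.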

How the data were processed

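RNA of BMDMs was sequenced in 12 libraries, 4 groups of 3, made with a directional kit. The authors trimmed reads with Trim Galore, quantified transcripts with Salmon and deposited a table of estimated counts by gene, rounded to integers. The genome build, annotation and Salmon options are not given in the sources used here. All 12 count columns were assigned by name and there were 0 others.

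The 168 members, the gene lists and the substrate classes were chosen with earlier results of these data known. Classes were assigned by SLC family number from general knowledge, with a few single members moved. A class name thus need not give the substrate or the membrane of every member. Counts were scaled by TMM and genes filtered by group in edgeR 4.0.16 (R 4.3.3). The quasi-likelihood test was fitted to the 4 group means over 12 libraries, and p-values were adjusted by Benjamini-Hochberg over the 10822 genes tested. All tests were two-sided, and SE was the absolute log2 fold change divided by the square root of F. CPM are edgeR values on TMM-scaled library totals, and rates per kb used the median length of a gene's annotated transcripts, or the longest as an alternative chosen after seeing the data. GC content and length came from GENCODE M21 (GRCm38) matched by symbol. In the fit with the trend taken out, each library's counts were regressed on splines of GC content and length with 5 degrees of freedom. Replicates differed by 2.19 to 18.5 times the counting variance, and 0 of 12 pairs were identical. Reads of close paralogs (Slc25a4 and Slc25a5, Slc22a5 and Slc22a21) can be split by the counting.

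Genes named were members past a log2 fold change of 0.8 (at most 5 a direction), the member with the smallest p in WT and that with the highest level in each class, and a list known from macrophages. The members called in WT are also named, except 1 that is not reported here, and members called in WT or between genotypes beyond that rule were named after their values were seen. Alternatives were DESeq2 1.42.0, limma-voom 3.58.1, other scalings and filters, a replicate block, the libraries of a comparison alone and leaving out each library. The procedure was tested on simulated data that held no GC or length trend. The fit with the trend taken out was not tested in this way.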

Additional observations from a re-analysis of the deposited data

How the results depend on the processing

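Of the counts of SLC members called, 90 values under alternatives stayed within 1.5 times the count of the fit of all libraries and 16 did not. A count of 0 in both fits was taken as staying, as in every alternative for AMPKβ1-/- BMDMs. With PF-06409577 in WT the count of 36 became 17 with the GC and length trend taken out, 8 in the WT libraries alone, 3 past a log2 fold change of 0.8 and between 8 and 51 without 1 library. The interaction count of 0 became 2 in DESeq2, 3 with the trend taken out and between 0 and 3 without 1 library. Between genotypes with vehicle the count of 93 became 53 with the trend taken out and 19 past a log2 fold change of 0.8, and between genotypes with PF-06409577 the 65 ran from 42 to 74 without 1 library. The count in AMPKβ1-/- BMDMs was 0 in every alternative run.

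With the replicate number as a block, the counts were 40 in WT, 0 in AMPKβ1-/- BMDMs, 0 for the interaction, and 93 and 69 between genotypes. Same-numbered libraries correlated between −0.17 and 0.317, and in 11 of 24 comparisons with another group a library correlated best with its own number. With 3 libraries a group this check cannot tell whether the numbers pair the libraries.

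For log2 fold changes of single genes 1400 values kept direction and side of the threshold, 155 lost the call, 6 gained it and 12 changed direction. With the trend taken out Slc15a3 was at 0.22 (adjusted p = 0.0314) for PF-06409577 in WT. Between genotypes with vehicle the same step gave −0.0057 for Slc16a7, 0.043 for Slc35a4, 0.090 for Slc11a1, 0.092 for Slc12a7, 0.094 for Slc4a2, −0.21 for Slc17a5, −0.088 for Slc40a1, 0.00013 for Slc15a4, −0.21 for Slc16a1 and 0.15 for Slc48a1, and library size alone gave 0.020 for Slc37a2. Sign changes of values called in neither fit were not counted. The cause was not tested. Median half-widths of 0.25 in each genotype limit the differences that 3 libraries a group can show.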
